A study of Mus musculus with 2 samples.

Results

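The Hoxc cluster holds the 9 genes Hoxc4, Hoxc5, Hoxc6, Hoxc8, Hoxc9, Hoxc10, Hoxc11, Hoxc12 and Hoxc13. DNA methylation was described at every cytosine covered on chromosome 15 from 102745000 to 102870000 of the mouse genome build NCBIM37 (mm9), which made 526 of the 826937 positions covered in both cell types. The cell types were wildtype (wt) mouse embryonic fibroblasts (MEFs) and MEFs of the genotype ESR2 -/- (βerko), which lack oestrogen receptor β. Both came from the C57BL/6 strain and grew in high-glucose medium with serum. In reduced representation bisulfite sequencing (RRBS), MspI cuts DNA at CCGG and bisulfite converts unmethylated cytosines, so that the remaining ones count as methylated, whether they carry a methyl or a hydroxymethyl group. Each cell type gave 1 library, made from DNA of 3 pooled batches, so that no spread between cultures or animals could be estimated and all comparisons are between the reads of these 2 libraries. Markers of the fibroblasts and the loss of Esr2 cannot be checked from methylation alone.

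Hox genes encode homeodomain transcription factors that give cells along the body axis and in the limbs their positional identity. Within a cluster their order on the chromosome follows the order of their expression from head to tail, and cultured fibroblasts keep a Hox pattern that marks where in the body they came from. Silent Hox genes of most somatic cells are held by Polycomb proteins in CpG-rich DNA with little methylation, and methylation within the clusters differs between tissues and between cell lines. In the Hoxc cluster all 9 genes are read in the same direction, from Hoxc13 at the low-coordinate end to Hoxc4 at the other. The noncoding RNA Hotair and the microRNA genes Mir196a-2 and Mir615 lie between them.

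The DNA of 4 stretches in which neighbouring positions differed between the libraries is given here on the plus strand of NCBIM37. They were chosen by their values, outside untranslated exons, and show where the affected CpGs lie. Capitals mark each CpG that was covered on at least 1 strand. The first stretch, chr15:102785161-102785250, lies in the first exon of Hoxc11 and holds the longest run of positions that were lower in βerko MEFs.
Hoxc11 first exon: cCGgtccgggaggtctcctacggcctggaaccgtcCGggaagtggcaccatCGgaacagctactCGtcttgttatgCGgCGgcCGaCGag
The block at chr15:102806330-102806603 ends upstream of the shorter Hoxc9 transcript, and all of its 12 positions were lower in βerko MEFs.
Hoxc9 upstream: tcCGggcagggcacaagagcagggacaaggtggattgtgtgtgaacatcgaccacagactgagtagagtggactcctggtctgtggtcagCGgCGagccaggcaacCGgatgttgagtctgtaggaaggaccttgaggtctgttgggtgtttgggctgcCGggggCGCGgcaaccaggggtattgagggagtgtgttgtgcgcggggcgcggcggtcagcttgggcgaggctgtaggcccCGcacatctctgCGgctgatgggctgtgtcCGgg
In the first coding exon of Hoxc8, chr15:102821348-102821426 surrounds a position with a large loss on both strands.
Hoxc8 first exon: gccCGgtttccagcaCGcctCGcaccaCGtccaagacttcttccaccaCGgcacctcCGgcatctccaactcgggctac
In the intron of Hoxc5, chr15:102845322-102845507 contains the Mir615 hairpin, and its 16 positions were higher in βerko MEFs.
Hoxc5 intron: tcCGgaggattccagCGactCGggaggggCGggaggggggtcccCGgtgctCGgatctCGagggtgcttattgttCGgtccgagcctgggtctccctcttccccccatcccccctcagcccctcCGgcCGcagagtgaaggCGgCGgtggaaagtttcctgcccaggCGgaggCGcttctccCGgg
The mature microRNAs cut from this hairpin, from the RefSeq table for GRCm38.p6 with the seed (bases 2 to 8) in capitals, each matched NCBIM37 once within the interval.
mmu-miR-615-5p: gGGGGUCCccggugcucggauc
mmu-miR-615-3p: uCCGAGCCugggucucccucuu

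The interval held 2599 CpGs on NCBIM37, of which 465 (17.9 %) were covered, compared with 3.98 % of the CpGs of chromosome 15. It is rich in both the target and the cutting site of the method, with 20.8 CpGs and 2.52 CCGG sites per kb against 8.66 and 0.652 on the whole chromosome. Each of the 526 positions lay on a CpG. They formed 74 blocks in which neighbours were at most 100 bp apart, and positions of a block share MspI fragments and reads. Read numbers were at hand for 5 positions of the interval, those that met the criterion for a differentially methylated position (DMP). At the other 521 positions the depth is unknown, so that their percentages are given without an interval and differences between them without a test.

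The Hoxc interval was more often partly methylated in wt MEFs than all covered positions together were. Between 20 and 80 % methylation lay 214 positions (40.7 %), whereas 17.2 % of all covered positions had such values. Below 20 % lay 263 positions (50 %) and above 80 % only 49 (9.32 %), compared with 32.5 % of all covered positions. In βerko MEFs 298 positions were below 20 %, 187 in between and 41 above 80 %. The 526 positions averaged 29.9 % methylation in wt MEFs and 26.6 % in βerko MEFs, a difference of -3.30 percentage points. Over all covered positions the means were 40.7 % and 38.8 %.

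Differences in both directions were more frequent in the interval than over all covered positions, as they also were in the other Hox clusters. Methylation was lower in βerko MEFs by at least 20 percentage points at 104 positions (19.8 %), against 10.4 % of all covered positions. It was higher by at least 20 points at 66 positions (12.5 %), against 6.81 %. Because partial methylation leaves room for a difference of this size in either direction, the 214 positions with 20 to 80 % in wt MEFs were also compared with all such positions. Of these, 86 (40.2 %) were lower in βerko MEFs, against a background of 30.9 %, and 19 (8.88 %) were higher, against 29.0 %. The 2 sets did not start alike, with means in wt MEFs of 43.3 % in the interval and 51.4 % over all such positions. Only 19 of the 66 gains are in this comparison, since the others started below 20 % in wt MEFs.

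**Figure D1:**
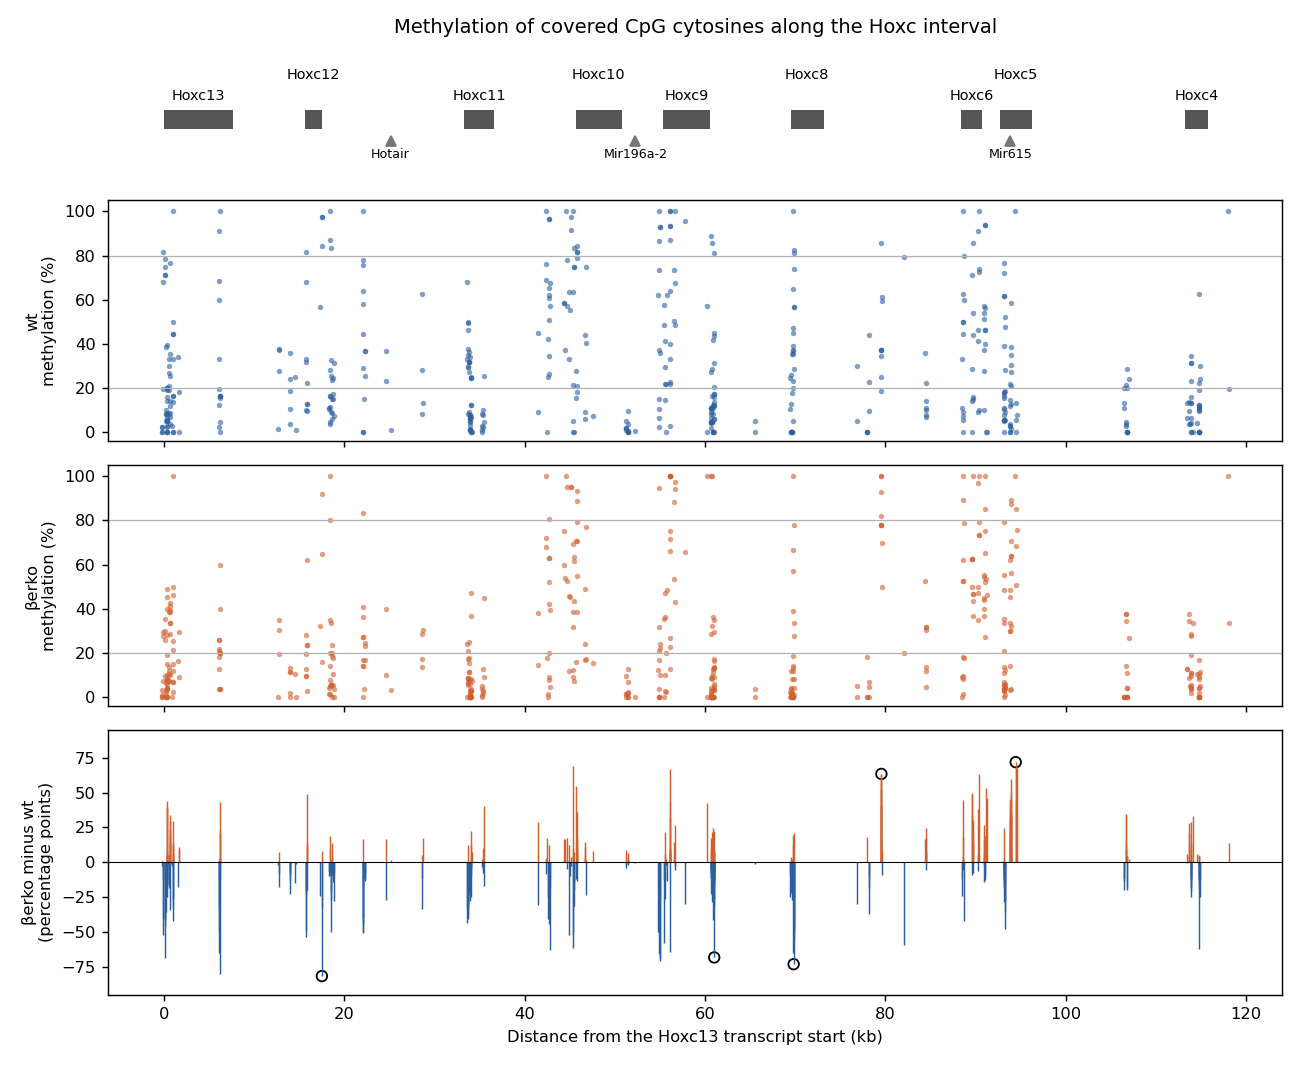
Methylation (%) of the 526 covered positions in wt (blue) and βerko MEFs (orange), and the difference in percentage points, against the distance in kb from the Hoxc13 transcript start; boxes are the shortest coding transcripts, triangles noncoding RNAs, grey lines 20 and 80 %, and rings the 5 DMPs. Losses prevail from Hoxc13 to Hoxc8, and gains over Hoxc6 and Hoxc5.

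Few of these differences ran from one extreme to the other. A DMP had more than 4 reads in each library, with methylation under 20 % in 1 cell type and over 80 % in the other. By this criterion 3 positions (0.570 %) were hypomethylated DMPs in βerko MEFs, against 0.7 % of all covered positions. Another 2 positions (0.380 %) were hypermethylated, against 0.237 %. All 5 passed a two-sided Fisher's exact test with Benjamini-Hochberg adjustment over 826937 positions, as did 0.642 % and 0.212 % of all positions in the respective direction. The test used the same reads by which DMPs are chosen, so that passing it adds little to the criterion. The counts of DMPs in the interval were thus close to the background. Of the 104 positions that were lower by at least 20 points, 86 started from partial methylation in wt MEFs.

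The largest difference of the interval lay 23 bp past the end of the Hoxc12 transcript, at position 102769063 on the minus strand. Here 37 of 38 reads were methylated in wt MEFs (97.4 %, exact 95 % confidence interval 86.2 to 99.9 %) and 6 of 38 in βerko MEFs (15.8 %, 6.02 to 31.2 %), with an adjusted p of 1.81e-11 in Fisher's exact test. Of the other 2 positions within 100 bp, 102769037 was also lower in βerko MEFs, with 97.4 and 64.9 %, whereas 102769028 had 84.2 % in wt and 92.1 % in βerko MEFs. The plus-strand sequence of chr15:102769051-102769075 shows the DMP in capitals.
Hoxc12 downstream: caggcccttccCGgacgtctcttgt
The DMP in the first coding exon of Hoxc9, at 102812569 on the minus strand, was methylated in 13 of 16 reads in wt MEFs (81.2 %, 54.4 to 96.0 %) and 3 of 23 reads in βerko MEFs (13.0 %, 2.77 to 33.6 %), with an adjusted p of 0.00430 in Fisher's exact test. Its 13 neighbours within 100 bp had means of 18.6 % and 11.9 %, and their differences ran from -31.2 to 22.3 points. In chr15:102812557-102812581 the DMP lies among 5 covered CpGs, the others of which ranged from 0 to 43.8 % in wt MEFs.
Hoxc9 coding exon: ctCGccCGaggCGgaCGCGctggcc

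By contrast, the DMP in the first coding exon of Hoxc8, a gene that acts in the identity of limb-level motor neurons and in the thoracic skeleton, was part of a run. At 102821376 on the minus strand 43 of 53 reads were methylated in wt MEFs (81.1 %, 68.0 to 90.6 %) and 8 of 99 reads in βerko MEFs (8.08 %, 3.55 to 15.3 %), with an adjusted p of 2.51e-17 in Fisher's exact test. The same CpG on the plus strand went from 73.9 to 27.8 %. The run of 5 positions from 102821368 to 102821406 had means of 64.6 % in wt and 14.9 % in βerko MEFs, the smallest loss being 24.8 points. Just 5 bp before the run, position 102821363 differed the other way, with 56.5 % in wt and 77.8 % in βerko MEFs.

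Both hypermethylated DMPs lay toward the Hoxc4 end. At 102846002 on the plus strand, in the 3′ untranslated exon of Hoxc5, 9 of 67 reads were methylated in wt MEFs (13.4 %, 6.33 to 24.0 %) and 52 of 61 reads in βerko MEFs (85.2 %, 73.8 to 93.0 %), with an adjusted p of 2.39e-14 in Fisher's exact test. Its run of 4 positions from 102845983 to 102846100 averaged 6.77 % in wt MEFs and 70.0 % in βerko MEFs. This was the largest mean difference of any run in the interval, and 1 CpG of the run was covered on both strands, with 5.80 and 0 % in wt against 50.8 and 68.4 % in βerko MEFs. A neighbour upstream of the run, at 102845963, was fully methylated in both cell types.

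The other hypermethylated DMP, at 102831107 on the minus strand, lay in the first untranslated exon of a longer Hoxc6 transcript, Hoxc6-003. Methylation was found in 6 of 32 reads in wt MEFs (18.8 %, 7.21 to 36.4 %) and 46 of 56 reads in βerko MEFs (82.1 %, 69.6 to 91.1 %), with an adjusted p of 1.01e-06 in Fisher's exact test. The plus strand of this CpG went from 37.5 to 100 %. Within 28 bp there were 2 runs of 3 positions, with means of 33.3 and 30.2 % in wt and 77.8 and 91.7 % in βerko MEFs. Position 102831102 between them was at 85.7 % in wt and 100 % in βerko MEFs. Further along the exon, at 102831132, the order was 59.4 % and 50 %.

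**Figure D2:**
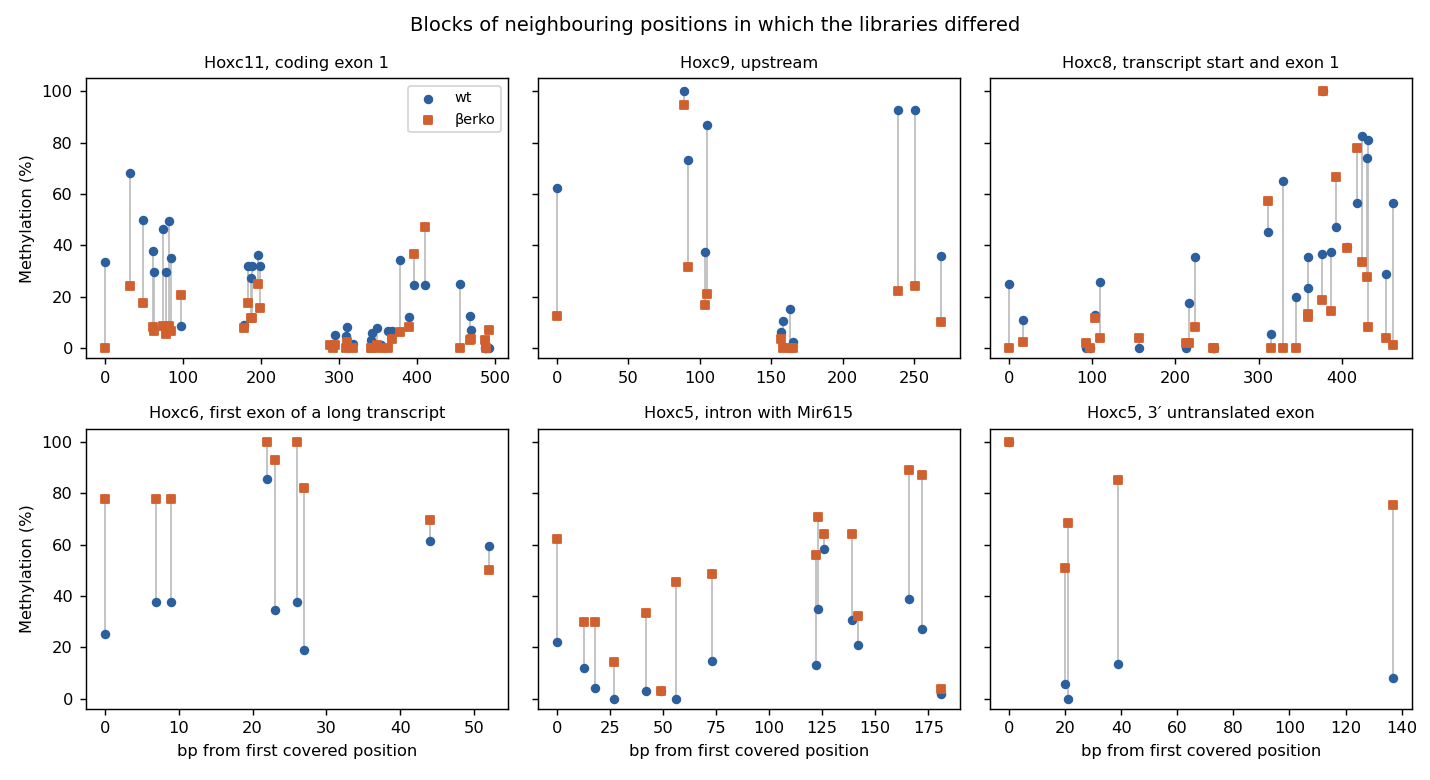
Methylation (%) in wt (blue circles) and βerko MEFs (orange squares) of each covered position in 6 blocks, against the distance in bp from the block's first covered position; grey lines join the values of a position. The losses in Hoxc11, Hoxc9 and Hoxc8 and the gains in Hoxc6 and Hoxc5 extend over neighbouring positions, next to positions that were alike in both libraries.

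The intron of Hoxc5 held the block with the most positions that were higher by at least 20 points. All 16 positions of its block were higher in βerko MEFs, by 0.09 to 60.0 points, and 10 of them by at least 20 points. Their mean was 17.7 % in wt and 45.8 % in βerko MEFs. Within the Mir615 hairpin 6 positions were covered, all on the plus strand, averaging 4.10 % in wt MEFs (0 to 14.7 %) and 29.1 % in βerko MEFs (3.03 to 48.5 %). The 2 positions within the sequence of miR-615-5p went from 2.94 to 33.3 % and from 2.94 to 3.03 %, while no position within miR-615-3p was covered. The 2 largest gains of the block, from 38.6 to 89.1 % and from 27.3 to 87.3 %, lay past the hairpin at 102845490 and 102845496. By contrast, the 22 coding positions of Hoxc5 had means of 26.6 % in wt and 16.3 % in βerko MEFs, so that gains and losses lay within the same gene.

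Each position was next assigned to the Hoxc gene whose shortest coding transcript held it or lay nearest. On this count 7 of the 9 genes had lower means in βerko MEFs and 2 had higher means. Hoxc12 went from 32.7 to 21.1 % (63 positions, 17 lower and 1 higher by at least 20 points). Hoxc11 went from 18.1 to 9.60 % (51 positions, 13 lower, 2 higher). Both belong to the posterior Hox genes, which act in the hind part of the body. Hoxc13, known for its role in hair and nails, had 75 positions and went from 25.1 to 19.0 %, with 16 lower and 10 higher. Hoxc9 went from 34.7 to 28.2 % (81 positions, 17 lower, 9 higher) and Hoxc10, which acts in lumbar motor neurons, from 43.7 to 39.8 % (63 positions, 14 lower, 4 higher). Neither of these losses was seen inside the shortest transcript, where the mean differences were 2.49 points for Hoxc9 (28 positions) and 10.1 points for Hoxc10 (13 positions). The shortest Hoxc9 transcript ends before the 41 covered coding positions of the gene, however. Those went from 18.2 to 12.9 %, with 6 lower and 3 higher. Within 2 kb of the transcript start, the mean difference of Hoxc10 was 0.921 points.

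Hoxc8 went from 30.7 to 26.6 % over 48 positions, with 14 lower and 7 higher. This mean included 17 positions in or nearest to longer transcripts of Hoxc6 and 2 nearest to a longer transcript of Hoxc9. Assigned by any coding transcript, 29 positions were left for Hoxc8, with means of 33.1 % in wt and 17.6 % in βerko MEFs and 12 lower against 1 higher. Hoxc6 then had 69 positions with means of 37.7 and 47.9 %, as compared with 40.2 and 48.9 % over 52 positions by the shortest transcript. Hoxc5 went from 23.2 to 34.2 % over 43 positions, with 4 lower and 15 higher. Hoxc4, at the end of the cluster, was the gene with the lowest mean in wt MEFs. It had 14.5 % in wt and 13.1 % in βerko MEFs over 50 positions, with 6 lower and 6 higher, and its mean difference turned to 4.18 points when each block counted once.

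**Figure D3:**
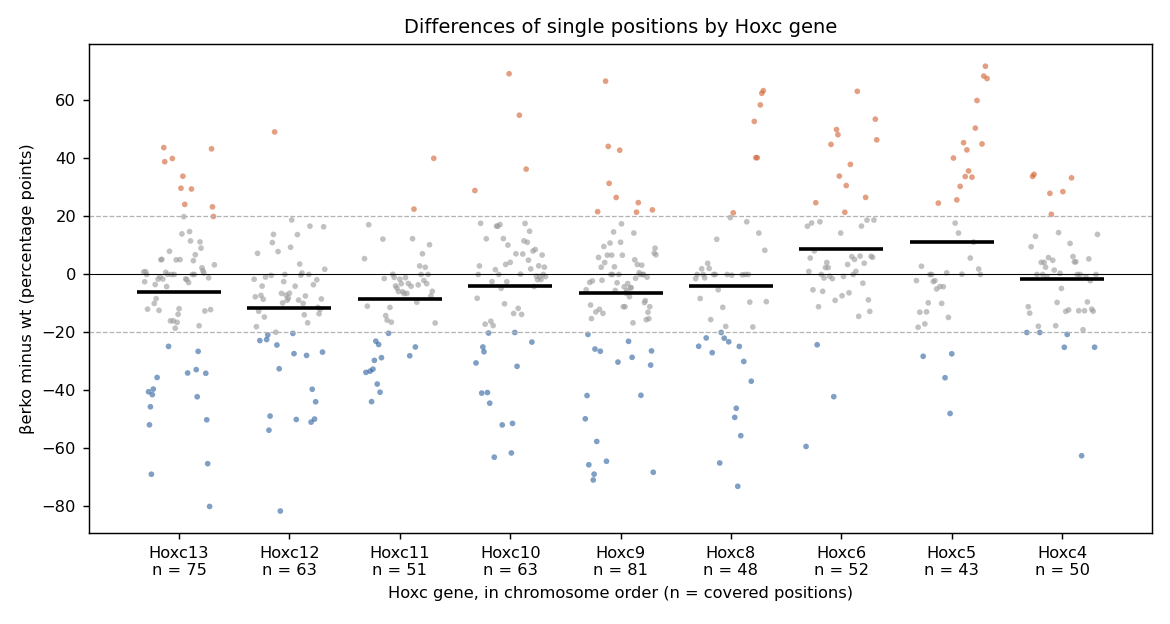
Differences in methylation (βerko minus wt, percentage points) of single positions by Hoxc gene, in chromosome order from left to right within and between genes; black bars are means, dashed lines 20 points, and colour marks differences of at least 20 points. Means lie below 0 from Hoxc13 to Hoxc8 and in Hoxc4, and above 0 in Hoxc6 and Hoxc5.

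From Hoxc13 to Hoxc8, positions averaged 31.2 % in wt MEFs and 24.4 % in βerko MEFs, and 91 of 381 positions (23.9 %) were lower by at least 20 points against 33 (8.66 %) higher. From Hoxc6 to Hoxc4, the means were 26.3 % and 32.2 %, with 13 of 145 positions (8.97 %) lower and 33 (22.8 %) higher. Over all covered positions, 10.4 % were lower and 6.81 % higher by at least 20 points. This division was made after the values of the genes had been seen and is a description.

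Runs of at least 3 neighbouring positions that differed by at least 20 points in the same direction numbered 10 with losses (40 positions) and 6 with gains (20 positions). Runs were not counted outside the interval, so that these numbers have no background beside them. The longest, in the first exon of Hoxc11, had 9 positions with 42.2 % in wt and 9.52 % in βerko MEFs. In wt MEFs they ranged from 29.6 to 68.1 % and in βerko MEFs from 0 to 24.2 %. Each position of a run was chosen for a difference of at least 20 points, so that a gap between these ranges adds little. Hoxc13 had 3 runs with losses and 1 with gains. In its coding exons, 4 positions from 102751653 to 102751686 went from 74.1 to 25.2 %, and 3 positions from 102757653 to 102757701 from 73.1 to 23.3 %. The latter lay 36 bp before a run of 3 positions with gains, from 11.1 to 40 %. In the 5′ untranslated exon of Hoxc12 the 4 positions from 102767266 to 102767279 went from 53.8 to 17.3 %. Upstream of Hoxc9, the 12 positions of the block shown above had means of 51.3 % and 19.7 %, with differences from -70.9 to -2.22 points, and its last 3 positions went from 73.8 to 18.7 %. Runs with losses were not found in Hoxc6, Hoxc5 or Hoxc4, and runs with gains were found in Hoxc13, in Hoxc5 and in the first untranslated and a coding exon of Hoxc6.

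Promoter windows were taken from 500 bp before to 100 bp after a transcript start. Their 55 positions had means of 38.9 % in wt and 24.5 % in βerko MEFs, with 21 lower and 3 higher by at least 20 points. The difference of -14.4 points was the largest among annotated parts, but with windows of 1 kb to both sides it was -5.60 points, less than the -6.19 points of positions outside promoters and transcripts. Windows with covered positions were those of Hoxc13, Hoxc12, Hoxc10, Hoxc9, Hoxc8 and the longest Hoxc6 transcript, and each had a lower mean in βerko MEFs. They ranged from 53.8 against 17.3 % at Hoxc12 to 52.9 against 50.3 % at Hoxc10. The window of the longest Hoxc6 transcript held only 2 positions. No position was covered in the windows of Hoxc11, Hoxc5, Hoxc4 and the Hoxc6 transcripts Hoxc6-001 and Hoxc6-003. Exon positions (268) had means of 26.2 and 23.4 %, introns (89) 26.5 and 33.0 %, and the remaining 114 positions 36.8 and 30.1 %. The noncoding gene Gm20398 reaches from within Hoxc10 to within Hoxc5 and spans many of these positions. The 241 positions within the span of its transcripts, introns included, had means of 31.4 % in wt and 32.4 % in βerko MEFs. Of these, 39 were lower and 43 higher by at least 20 points. The 3 positions in Hotair, a noncoding RNA known for its work with Polycomb proteins, had means of 20.5 and 17.6 %. Mir196a-2, whose microRNA targets Hox messenger RNAs, had no covered position.

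Large single differences were also found apart from the DMPs. At 102757734 in the last coding exon of Hoxc13 the values were 100 % in wt MEFs and 20 % in βerko MEFs on the plus strand, and 15.6 and 3.45 % on the minus strand. Position 102866336 in a coding exon of Hoxc4 had 62.5 and 0 %, and 102785196 in Hoxc11 had 68.1 and 24.2 %. Higher in βerko MEFs were 102796946, which lies 281 bp upstream of Hoxc10, with 0 and 69.2 %, and 102841958 in the 3′ untranslated exon of Hoxc6 with 10.0 and 73.2 %. The depth behind these percentages is unknown.

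CpGs covered on both strands gave a second reading of the same site within a library. Of the 61 such CpGs, the strands lay within 20 points of each other at 46 (75.4 %) in wt and 48 (78.7 %) in βerko MEFs, whereas over all 70667 such CpGs of the data these shares were 90.7 and 92.1 %. The median difference between strands in the interval was 6.85 points in wt and 6.20 in βerko MEFs, against a median difference between libraries of 11.1 points. Over all such CpGs of the data these medians were 1.80 points in wt, 1.35 in βerko MEFs and 1.81 between libraries. Of 28 CpGs of the interval with a difference of at least 20 points between libraries on at least 1 strand, 5 were lower on both strands and 5 were higher on both. None differed in opposite directions by 20 points. Over the whole data there were 15731 such CpGs, of which 5466 were lower on both strands, 2048 higher on both and 145 opposite. In the interval, the losses on both strands lay in Hoxc11, Hoxc9, Hoxc8 and, at 2 CpGs, upstream of Hoxc10. The gains lay in Hoxc13, Hoxc9, Hoxc6 and, at 2 CpGs, in Hoxc5. At the CpGs where the strands were further apart, a difference of 20 points between libraries on a single strand was thus no larger than that between the strands of 1 library.

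**Figure D4:**
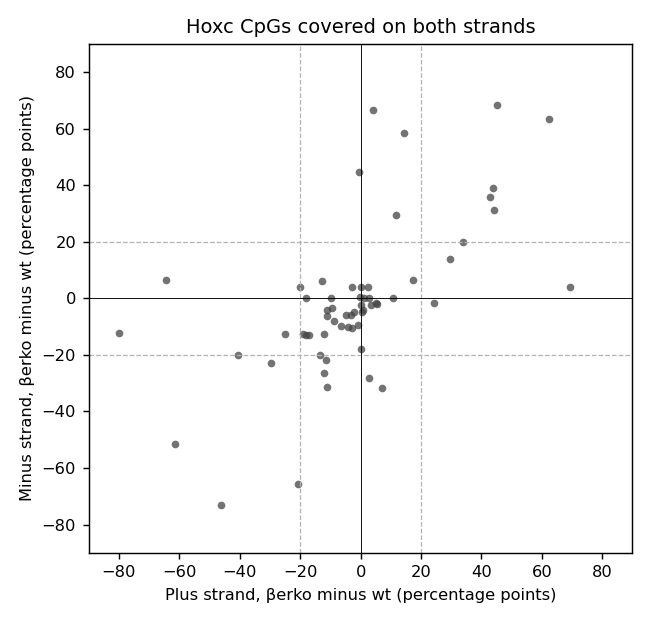
Difference in methylation (βerko minus wt, percentage points) on the plus strand against that on the minus strand for the 61 Hoxc CpGs covered on both strands; dashed lines mark 20 points. Of these CpGs, 5 lie beyond the lines in the lower left corner, 5 in the upper right, and none in the other two.

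The other Hox clusters were taken from their first to their last Hox gene. In wt MEFs, 41.0 % of 654 Hoxb positions were between 20 and 80 %, close to the 40.7 % of Hoxc, compared with 32.6 % of 674 Hoxd positions and 5.94 % of 673 Hoxa positions. In βerko MEFs these shares were 30.4 % for Hoxb, 26.6 % for Hoxd and 34.3 % for Hoxa. Mean methylation went from 28.4 to 26.0 % in Hoxb, from 38.3 to 27.3 % in Hoxd and from 26.9 to 26.8 % in Hoxa. Positions lower by at least 20 points in βerko MEFs made up 22.2 % of Hoxb, 30.4 % of Hoxd and 19.8 % of Hoxa, against 19.8 % of Hoxc. Positions higher by at least 20 points made up 17.1 % of Hoxb, 16.5 % of Hoxd and 26.0 % of Hoxa, against 12.5 % of Hoxc. Against 0.7 % of all covered positions, hypomethylated DMPs made up 0.459 % of Hoxb, 9.79 % of Hoxd and 7.73 % of Hoxa, as compared with 0.570 % of Hoxc. Hypermethylated DMPs, 0.237 % of all covered positions, made up 1.22 % of Hoxb, 0.890 % of Hoxd and 1.34 % of Hoxa, as compared with 0.380 % of Hoxc. These values stand side by side without a test, since each cluster was read in the same 2 libraries.

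**Figure D5:**
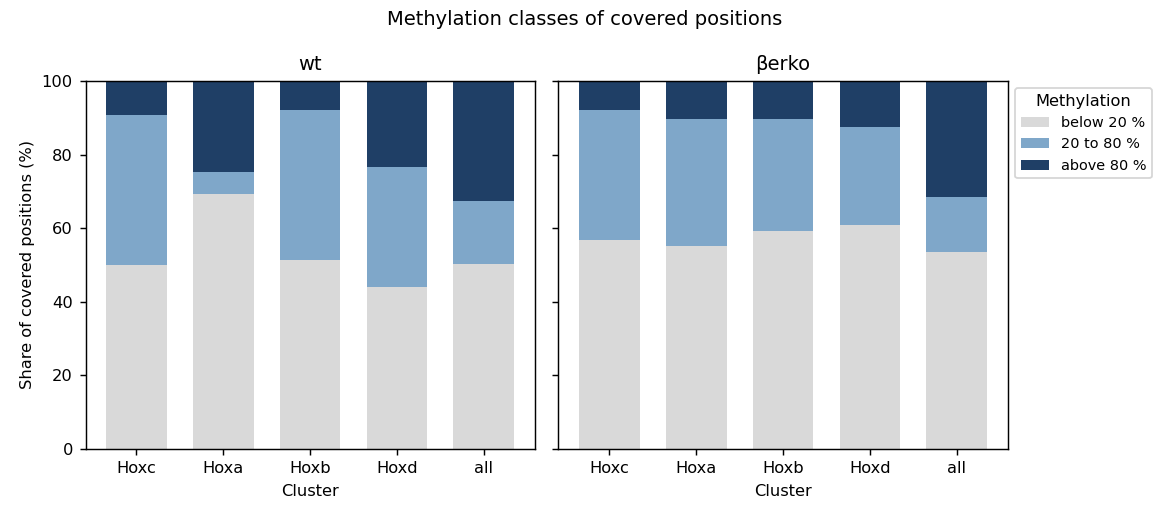
Share (%) of covered positions below 20 %, from 20 to 80 % and above 80 % methylation in wt (left) and βerko MEFs (right) for the Hoxc interval, the other Hox clusters and all covered positions. The middle class makes up 40.7 % of Hoxc in wt MEFs, against 17.2 % of all positions.

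Hox proteins bind DNA together with cofactors of the TALE homeobox family, the Pbx, Meis and Pknox proteins. Among the cofactor genes reported here, 14 of 91 positions of Meis2, 6 of 97 of Pknox2 and 1 of 120 of Pbx3 were hypomethylated DMPs, against 0.7 % of all covered positions. All of them passed Fisher's exact test after adjustment, as did 0.642 % of all covered positions in this direction. Meis2 went from 55.2 to 29.1 %, Pknox2 from 51.4 to 36.6 % and Pbx3 from 4.30 to 3.02 %. No hypomethylated DMP was found in Meis1, Meis3, Pknox1, Pbx2 or Pbx4. Of these, Meis1 went from 90.3 to 75.4 % and Pbx4, with 7 positions, from 50.8 to 58.7 %, while the means of the others differed by less than 2 points. None of the genes named here held a hypermethylated DMP, a class that made up only 0.237 % of all covered positions.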

How the data were processed

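DNA of wt and βerko MEFs was analysed by RRBS. The submitters' processing notes name CASAVA 1.4, and mapping by the authors used the Genomatix Mining Station, whose version is not given in the sources used here. The authors deposited percent methylation for cytosines that both libraries covered, without depth. For DMPs they also deposited the read count of each library, in which both percentages times the read count gave whole reads within 0.0122. Their gene annotation of DMPs was not used. At DMPs the reads per library ran from 5 to 259, and positions with exactly 4 reads were left out.

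Positions were placed on NCBIM37 with the GENCODE vM1 gene models. Methylated and unmethylated reads were compared by two-sided Fisher's exact test and adjusted by the Benjamini-Hochberg method over 826937 positions, with untested positions at a p-value of 1 and a threshold of 0.05. Intervals of single positions are exact at 95 %. Without molecular identifiers PCR copies count as separate reads, so intervals and tests cover counting error alone. Named were all 9 Hoxc genes with Hotair and the microRNA genes, every DMP, the 5 longest runs and the 3 with the largest mean difference in each direction, and for genes without a DMP the position with the largest difference; other positions were named after their values were seen. The members and lists were chosen with earlier results of these data known. The procedures were tested on simulated data. SciPy 1.17.1, pandas 2.3.3, NumPy 2.4.6 and matplotlib 3.10.9 were used under Python 3.11.15. Part of the list of Hox cofactor genes is not reported here. Expression data were not analysed here.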

Additional observations from a re-analysis of the deposited data

How the results depend on the processing

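When DMPs had to lie below 10 and above 90 %, 0 hypomethylated and 0 hypermethylated DMPs were left in the interval, and with both strands of a CpG merged there were 2 and 1. Minima of 4 or 10 reads, adjustment over the listed DMPs alone and an adjusted p threshold of 0.01 kept 3 and 2. At 30 points, 61 positions of the interval were lower in βerko MEFs and 45 higher, without a count over all covered positions beside them. At 50 points, 24 were lower and 15 higher, against 24139 and 12121 of all 826937 covered positions. Runs of at least 5 positions numbered 2 with losses and 0 with gains, and runs at 50 points 0 and 2. For the 9 genes, 41 of 45 alternative mean differences had the sign of the reported one; the others were those of Hoxc9, Hoxc10 and Hoxc4 given with these genes. The mean difference of the exons turned to 0.325 points with the wider promoter windows. From Hoxc13 to Hoxc8 the mean difference ran from -7.82 to -5.84 points and from Hoxc6 to Hoxc4 from 6.07 to 7.45 points over 4 alternatives each, all chosen after seeing the data, as was the assignment by any coding transcript. In Hoxa the mean difference was 7.0 points when each block counted once. No paired analysis was possible because there was 1 library of each cell type, which also left no replicate to leave out.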
